A study of Mus musculus with 18 samples.

Results

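The genes described here are the subunits of the receptors for glutamate and GABA, the main excitatory and inhibitory transmitters of the forebrain. The members were taken by gene name, not by value, although the set was picked with earlier results of these data known. It covers AMPA, NMDA, kainate, delta, metabotropic glutamate, GABA-A, rho and GABA-B subunits. All 46 genes were found in each of the 4 expression tables, among 23138 named genes in the hippocampal table, 23398 in the neurosphere table and 54429 in each of the cortical and *Rnf2* tables. A gene was tested where its mean reached 0.5 FPKM (sequenced fragments scaled to transcript length and to the size of the library), which held for 38 receptor genes in hippocampi, 25 in neurospheres, 33 in cortices and 37 in *Rnf2* hippocampi.

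All samples came from mice at postnatal day 0. The first 3 tables compare controls, labelled Kdm2bfl/+ or Kdm2bfl/fl, with cKO mice labelled Kdm2bEmx1-delta-CxxC, in hippocampi (3 and 3 libraries), in hippocampal neurospheres (2 and 2) and in cortices (2 and 2). The last table compares hippocampi of controls labelled Rnf2fl/+ or Rnf2fl/fl with Rnf2Emx1-cKO (2 and 2). The labels do not tell controls with a single floxed allele from those with both. *Kdm2b* encodes a protein that binds unmethylated CG dinucleotides through its CxxC zinc finger, the piece deleted here, and that recruits a Polycomb repressive complex. *Rnf2* encodes the catalytic ubiquitin ligase of that complex. *Emx1*-Cre acts in progenitors of the dorsal telencephalon and in the excitatory neurons and glia they produce, whereas GABAergic interneurons, microglia and vessel cells in the same tissue keep the floxed allele intact. Neurospheres were grown from neonatal hippocampal progenitors as floating cultures with FGF2 and EGF. The labels do not say whether replicates came from separate animals, so p-values measure the spread between these libraries, which may be partly technical.

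AMPA receptors, tetramers of *Gria1* to *Gria4* products, carry fast excitation. NMDA receptors need the *Grin1* subunit and take their kinetics from the *Grin2* subunits, and a receptor with *Grin3a* passes less calcium. Kainate receptors are built from *Grik1* to *Grik3* subunits, which the *Grik4* and *Grik5* subunits need as partners. Metabotropic receptors (Grm genes) couple glutamate to G proteins. A GABA-A receptor is a chloride channel of alpha, beta and mostly gamma subunits, and a GABA-B receptor is a dimer in which *Gabbr1* binds GABA and *Gabbr2* couples to the G protein. In the newborn forebrain many of these genes are already active in neurons, and progenitors use several of them before synapses exist.

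Because the deleted CxxC domain reads CG dinucleotides, the windows of 250 bases upstream of the annotated start are shown for the 4 of 7 receptor genes called in *Kdm2b* hippocampi that had a window, with every CG in capitals. They come from RefSeq (build GRCm38.p6, minus strand in each case), and 31 of the 46 receptor genes had a window in that table. The first is *Grm2* at chr9:106656110-106656359, the second *Grin2c* at chr11:115267244-115267493, the third *Gabra5* at chr7:57510060-57510309 and the last *Gabra3* at chrX:72656920-72657169.
Grm2: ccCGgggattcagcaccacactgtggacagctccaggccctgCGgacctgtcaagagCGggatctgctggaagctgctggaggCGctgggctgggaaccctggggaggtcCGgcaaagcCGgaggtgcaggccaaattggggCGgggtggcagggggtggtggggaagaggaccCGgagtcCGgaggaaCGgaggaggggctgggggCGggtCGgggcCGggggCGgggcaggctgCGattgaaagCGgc
Grin2c: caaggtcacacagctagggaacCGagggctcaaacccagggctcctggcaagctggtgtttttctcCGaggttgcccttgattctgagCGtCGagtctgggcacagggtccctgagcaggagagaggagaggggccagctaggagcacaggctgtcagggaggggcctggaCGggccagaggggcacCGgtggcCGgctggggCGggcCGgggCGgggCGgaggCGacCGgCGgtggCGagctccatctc
Gabra5: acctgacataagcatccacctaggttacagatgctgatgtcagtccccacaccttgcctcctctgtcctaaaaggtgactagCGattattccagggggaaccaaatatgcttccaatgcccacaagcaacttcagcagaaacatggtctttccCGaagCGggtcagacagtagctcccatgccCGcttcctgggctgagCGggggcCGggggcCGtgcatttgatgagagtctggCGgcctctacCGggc
Gabra3: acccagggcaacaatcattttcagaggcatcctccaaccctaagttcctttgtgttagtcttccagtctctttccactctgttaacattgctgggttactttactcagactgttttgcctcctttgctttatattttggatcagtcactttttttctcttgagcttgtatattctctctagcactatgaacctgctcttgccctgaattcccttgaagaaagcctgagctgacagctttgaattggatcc
The *Grm2* window holds 16 CG and the *Grin2c* window 15, counts reached by 25.4% and 27.3% of the 32851 windows of the table, whose median is 6. The *Gabra5* window holds 9 (40.3% of windows hold at least as many), and that of *Gabra3* holds 0, as do 7.87% of windows. Of these 4 genes, *Grm2* and *Grin2c* were higher in cKO hippocampi and *Gabra5* and *Gabra3* lower. With windows for 67.4% of the receptor genes, no comparison over the whole set was made, and a count of CG in these letters says nothing on its own about binding or methylation.

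*Kdm2b* itself was at 29.4 ± 2.15 FPKM (SD, n = 3) in control hippocampi and 27.2 ± 0.992 FPKM (SD, n = 3) in those of cKO mice, a level over the whole gene that does not separate the floxed exon. It was at 22.1 ± 0.224 and 23.1 ± 0.837 FPKM in control and cKO neurospheres and at 16.3 ± 0.833 and 14.8 ± 0.167 FPKM in cortices (SD, n = 2 each). *Rnf2* in its own table was at 32.3 and 30.8 FPKM in controls and 28.5 and 27.8 FPKM in cKO (log2 fold change -0.16, adjusted p = 0.762 from limma). This *Rnf2* value, too, is over the whole gene and does not separate its floxed part. Reads assigned to genes, as recovered from FPKM and gene length, numbered 14654894 to 21905224 per library in the cortical and *Rnf2* tables. They leave out reads not assigned to a gene and so are not the sequencing depth. For hippocampi and neurospheres they could not be recovered from the values. In neurosphere control library 1, entries without a gene name took 29.3% of all FPKM, against 0.876% to 1.95% in the other neurosphere libraries. Single libraries also differed from the others of their table in X- and Y-linked transcripts. *Xist* was at 153.8 FPKM in hippocampal cKO library 1 and at most 0.0732 FPKM in the other hippocampal libraries, at 0.361 FPKM in neurosphere cKO library 1 against at least 140.0 FPKM in the others, and at 0.0177 FPKM in cortical control library 1 against at least 132 FPKM. *Gria3*, *Gabra3*, *Gabre* and *Gabrq* lie on the X chromosome, so their values are given below with that in view.

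In control hippocampi the receptor genes with the highest levels were *Gabbr1* at 99.0 ± 2.0 FPKM, *Gria2* at 93.8 ± 5.49 FPKM and *Gria1* at 88.9 ± 4.19 FPKM (SD, n = 3 each), whose neighbouring ranges overlapped. The alpha subunit *Gabra5* was at 63.8 ± 3.46 FPKM and the kainate subunit *Grik5* at 58.0 ± 5.82 FPKM. Of the NMDA subunits, *Grin1* (39.3 ± 3.18 FPKM) and *Grin2b* (34.3 ± 2.10 FPKM) were highest, and *Grm5* (28.0 ± 1.49 FPKM) led the metabotropic receptors ahead of *Grm7* (12.9 ± 2.11 FPKM). *Grik2* (35.0 ± 4.60 FPKM, in an entry that also names *C130030K03Rik*) came second to *Grik5* among kainate subunits. The delta subunit *Grid1* was at 14.7 ± 0.358 FPKM, and *Gabbr2* was at 33.5 ± 1.46 FPKM. Neurospheres had another order, with *Gria2* at 172 ± 11.8 FPKM, *Grik5* at 55.7 ± 4.29 FPKM and *Grm5* at 38.0 ± 1.66 FPKM (SD, n = 2 each) at the top. Among GABA-A subunits in neurospheres, the gamma subunit *Gabrg1* (18.5 ± 1.09 FPKM) was highest, and *Grin2a* and *Grin2b* stayed at or under 0.0885 FPKM. In the cortex *Grik5* (35.2 ± 1.11 FPKM) and *Grik3* (25.9 ± 0.923 FPKM) led the kainate and *Grin2b* (11.2 ± 0.298 FPKM) and *Grin1* (2.56 ± 0.156 FPKM) the NMDA subunits. Cortical controls were led by *Gria2* (90.3 ± 11.1 FPKM) and *Gabbr1* (39.6 ± 2.94 FPKM), and *Rnf2* controls by *Gabra5* (66.6 ± 11.9 FPKM) and *Gria1* (63.3 ± 8.97 FPKM). The tables were normalised separately, so no level is compared between them. *Grm6*, *Grm8*, *Gabra6*, *Gabre*, *Gabrq* and the rho subunits *Gabrr1* to *Gabrr3* were under 0.5 FPKM on average in every table and were tested in none.

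Loss of the KDM2B CxxC domain came with a shift of hippocampal receptor genes toward lower levels. Of 38 receptor genes tested, 29 had a negative log2 fold change (76.3%, against 47.8% of all genes tested), with a median of -0.12 against 0.01 for all genes. Every log2 fold change, log2 ratio or log2 difference from limma given here is a difference of log2(FPKM + 1). It is smaller in size than the log2 of the ratio of mean FPKM where a gene is low. A gene was called at a log2 fold change over 0.4 in size with an unadjusted p under 0.05, the study's thresholds. By this rule 4 receptor genes were lower (2.25% of all genes tested were) and 3 were higher (3.89% of all genes). With Benjamini-Hochberg adjusted p values, 4 were lower (1.47% of all genes) and 2 higher (2.94%). Without the fold threshold, 14 were lower (11.5% of all genes) and 3 higher (11.4%). In 14 receptor genes all 3 cKO libraries lay below all 3 controls (14.3% of all genes) and in 3 they lay above (14.9%). Without cKO library 3, the count of lower genes was 7 (354 of all 13439 genes tested), with *Grin2a* and *Grm7* among those added.

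**Figure D1:**
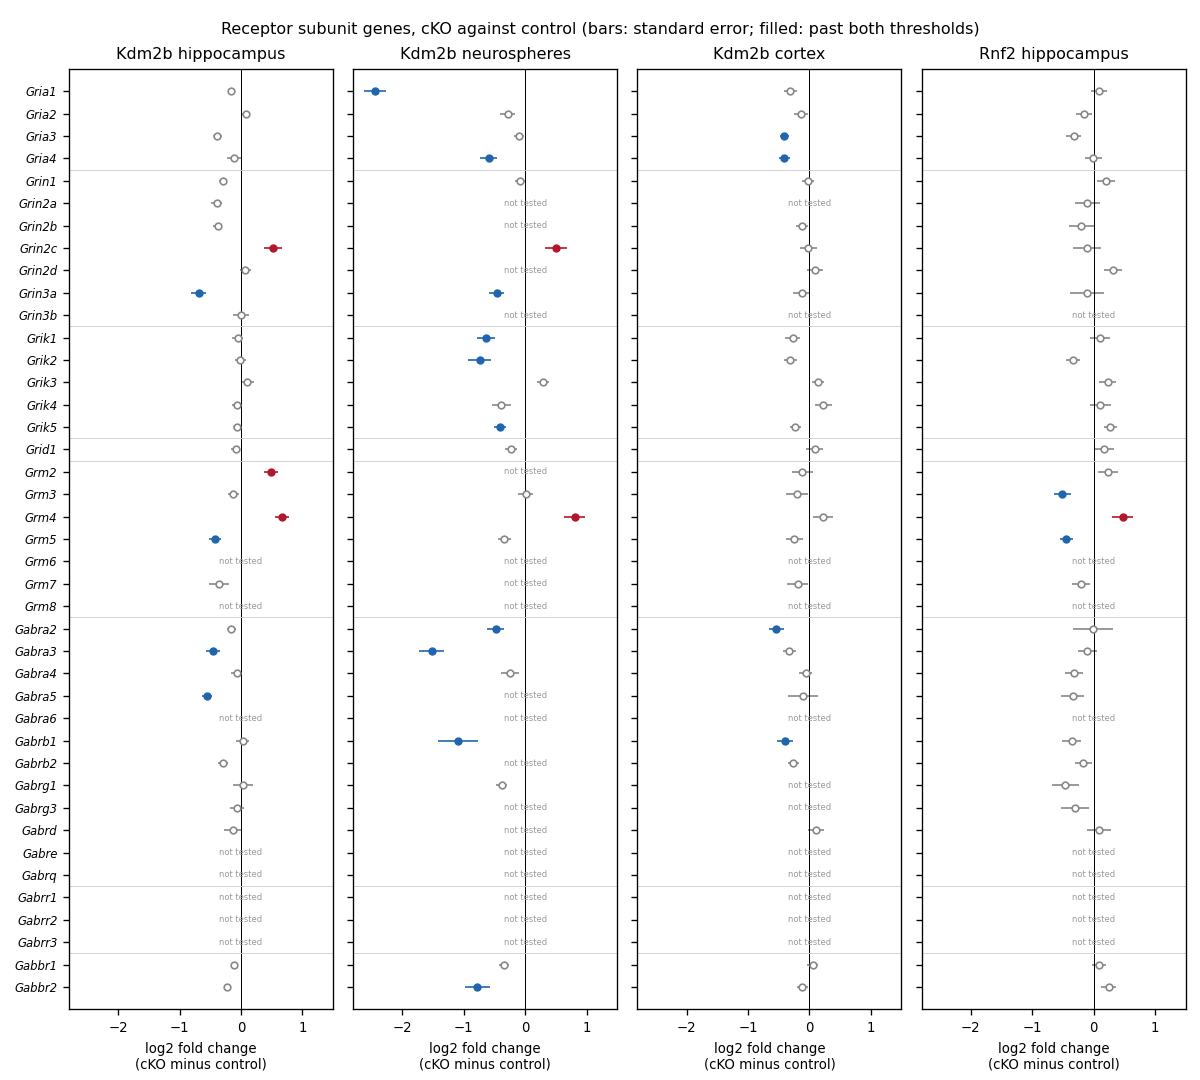
Log2 fold change (cKO minus control, x axis) of the receptor genes described (1 line each, by family) in the 4 comparisons, with bars for the standard error. Filled points passed both thresholds (red higher, blue lower in cKO), open points did not, and genes under 0.5 FPKM are marked as not tested. In hippocampi 4 filled points lie left and 3 right of 0, and in neurospheres 10 and 2.

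Among ionotropic glutamate receptors, the NMDA family lay lower in cKO hippocampi. Summed over its 7 subunits, it was at 114, 106 and 109 FPKM in the control and 94.7, 91.1 and 86.2 FPKM in the cKO libraries. The groups did not overlap, at a ratio of 0.83. *Grin3a*, the subunit that lowers calcium entry, was at 9.04, 8.13 and 11.4 FPKM in controls and 5.64, 4.96 and 5.86 FPKM in cKO hippocampi. Every cKO library was below every control, and control library 3 was the highest. The log2 ratio of *Grin3a* in limma was -0.69 (SE 0.12, adjusted p = 0.0111). *Grin1*, *Grin2a* and *Grin2b*, which make up most forebrain NMDA receptors, had log2 fold changes of -0.29, -0.40 and -0.38 (adjusted p = 0.0299, 0.0309 and 0.0144 from limma). They passed the adjusted p but not the fold threshold, which *Grin2a* missed by the least. With 0.1 in place of 1 added to FPKM, *Grin2a* was called lower, and *Grin1* and *Grin2b* were not. *Grin2d* was not called, at 24.2, 18.6 and 20.2 FPKM in controls and 22.8, 21.8 and 21.2 FPKM in cKO, and its share of summed NMDA subunit FPKM went from 21.2, 17.6 and 18.5% to 24.1, 23.9 and 24.6%, without overlap. The entry holds *Grin2d* together with *Grwd1*, so the 2 genes cannot be told apart in it. The NMDA sum above and these shares count the whole entry.

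*Grin2c*, an NMDA subunit best known from the cerebellum and from glia, was at 0.495, 0.578 and 0.623 FPKM in controls and 1.80, 0.927 and 1.09 FPKM in cKO hippocampi. All cKO libraries were higher, cKO library 1 the most, while the levels stayed low in both groups. Limma estimated a log2 difference of 0.52 (SE 0.15) at an adjusted p of 0.0693. It failed the adjusted threshold, and without cKO library 1 the change was 0.36.

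By the main rule, no AMPA subunit was called in hippocampi. Their sum was 209, 202 and 219 FPKM in controls and 194, 206 and 202 FPKM in cKO, and the groups overlapped. *Gria3* was at 11.98, 12.6 and 13.8 FPKM in controls and 9.48, 9.39 and 9.71 FPKM in cKO, with no overlap. On the log2 scale, limma put the change at -0.39 (SE 0.071, adjusted p = 0.0137), just under the fold threshold and therefore not called. With 0.1 in place of 1 added to FPKM, *Gria3* was called lower. The gene is X-linked, and cKO library 1, the one with *Xist*, lay between the other cKO libraries. *Gria1* was also below controls in every cKO library (76.8, 79.5 and 81.1 against 92.8, 84.5 and 89.4 FPKM, log2 fold change -0.17, adjusted p = 0.0765 from limma). *Gria2*, the subunit that makes AMPA receptors impermeable to calcium, was at 88.8, 92.9 and 99.7 FPKM in controls and 96.7, 104 and 95.9 FPKM in cKO. Its share of AMPA subunit FPKM went from 42.5, 46.0 and 45.6% to 49.7, 50.5 and 47.6%, so that every cKO library was above every control. The same held when both entries of *Gria1* and of *Gria2* were summed, with 41.0%, 43.8% and 43.9% in controls and 47.8%, 48.3% and 45.0% in cKO. With 3 libraries per group an exact two-sided permutation test cannot give a p below 0.1, and none was run on sums or shares. The 5 kainate subunits were not called, with log2 fold changes from -0.06 to 0.10, and their sum overlapped between groups at a ratio of 0.97. The delta subunit *Grid1* had -0.09.

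Metabotropic receptors changed in both directions. *Grm4*, a Gi-coupled presynaptic receptor, was at 2.81, 2.73 and 2.90 FPKM in controls and 4.21, 6.11 and 5.04 FPKM in cKO hippocampi. The controls lay close together and all cKO libraries above them. This made a log2 fold change of 0.67 on FPKM + 1 (SE 0.12), with an adjusted p of 0.0126 from limma. The ratio of mean FPKM, without the added 1, was 1.82. *Grm2*, a Gi-coupled autoreceptor whose upstream window is printed above, was at 4.45, 3.29 and 4.55 FPKM in controls and 6.22, 6.36 and 5.67 FPKM in cKO. Control library 2 was the lowest and no cKO library reached down to the controls. By limma, the change was 0.48 on the log2 scale, with a standard error of 0.11 and an adjusted p of 0.0349, and without control library 2 it was 0.36, under the fold threshold.

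*Grm5*, the Gq-coupled receptor that raises intracellular calcium, was at 27.4, 29.7 and 26.9 FPKM in controls and 18.2, 19.4 and 24.6 FPKM in cKO hippocampi. It fell in all cKO libraries, least in library 3. The log2 ratio of *Grm5* in limma was -0.43 (SE 0.10, adjusted p = 0.0344). This value lies close to the fold threshold, and it was -0.34 when cKO library 1 was left out and -0.39 when control library 2 or cKO library 2 was. Among metabotropic receptors, the mean share of *Grm5* was 45.7% in controls and 38.1% in cKO, that of *Grm2* 6.75% and 11.4%, and that of *Grm4* 4.61% and 9.48%, each without overlap, while the summed level of the 8 genes overlapped (0.89 times the control mean). *Grm3* and *Grm7* had log2 fold changes of -0.12 and -0.36 and were not called.

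**Figure D2:**
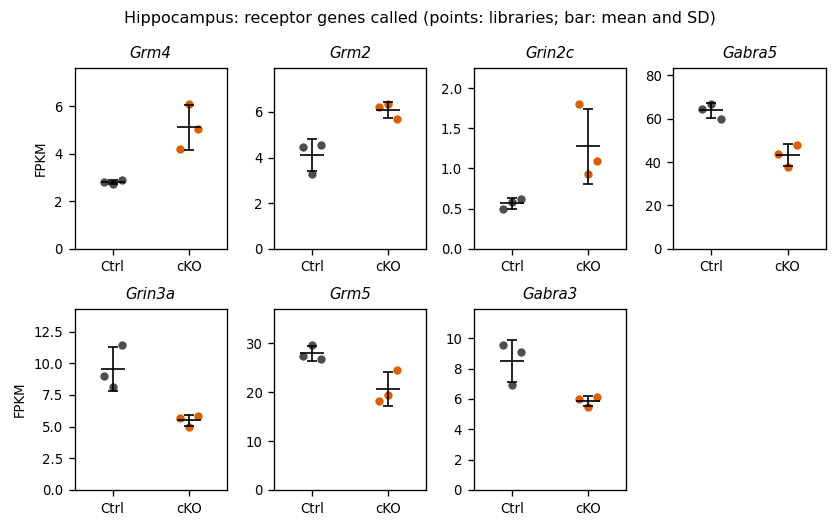
FPKM in each hippocampal library (points) of the 7 receptor genes called in the *Kdm2b* comparison, with the mean and SD of each group, and a y axis from 0 in each panel. The cKO points of *Gabra5* (37.9 to 48.1 FPKM) all lie under the controls (60.1 to 66.9 FPKM), and those of *Grm4* (4.21 to 6.11 FPKM) all above them (2.73 to 2.90 FPKM).

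GABA-A receptors were lower as a family, at 219.9, 215 and 223 FPKM in control and 177, 176 and 184 FPKM in cKO hippocampi when its 15 subunits outside the rho group were summed. No cKO library came near the controls, and the ratio was 0.81. Of 12 GABA-A subunits tested, 10 had a negative change, 2 were called lower and none higher. *Gabra5*, which forms receptors for tonic inhibition outside synapses, was at 64.5, 66.9 and 60.1 FPKM in controls and 43.8, 37.9 and 48.1 FPKM in cKO. The groups lay far apart, and it was the most abundant receptor gene among those called. Limma estimated a log2 difference of -0.56 (SE 0.082) at an adjusted p of 0.00624, which held under every alternative tried, between -0.63 and -0.47. *Gabra3*, an alpha subunit typical of the immature forebrain, was at 9.56, 6.93 and 9.07 FPKM in controls and 6.03, 5.47 and 6.12 FPKM in cKO. The highest cKO library was below the lowest control. On the log2 scale, limma put the change at -0.46 (SE 0.11, adjusted p = 0.0396), and it was -0.38 without control library 1. For this X-linked gene the change was -0.48 without cKO library 1, the library that had *Xist*.

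The beta subunit *Gabrb2* was at 10.4, 9.73 and 10.2 FPKM in controls and 8.08, 7.50 and 8.66 FPKM in cKO hippocampi, without overlap between groups. This made a log2 ratio of -0.29 (SE 0.075), with an adjusted p of 0.0465 from limma, under the fold threshold. *Gabra2* and *Gabra4* had -0.16 and -0.07, *Gabrb1* 0.03, *Gabrg1* 0.03, *Gabrg3* -0.07 and *Gabrd* -0.12, with overlapping libraries. *Gabrb1* was read from an entry that also names *Gabra4*. The GABA-B subunits were at 133, 132 and 133 FPKM in sum in controls and 121, 122 and 116 FPKM in cKO, with no overlap. *Gabbr2* had a log2 ratio of -0.23 (SE 0.052) with an adjusted p of 0.0277 from limma and *Gabbr1* -0.12 (adjusted p = 0.170).

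These are whole tissues, in which fewer cells of a type and less RNA per cell cannot be told apart. Summed over 8 pan-neuronal markers, control hippocampi had 2074 to 2202 FPKM and cKO hippocampi 1668 to 1934 FPKM, while none of the 8 genes passed the call thresholds. Over 8 progenitor markers the sums were 263 to 299 FPKM in controls and 390.4 to 424 FPKM in cKO, and *Pax6*, *Hes1*, *Vim*, *Nes*, *Eomes* and *Neurog2* were called higher. Of 6 microglial markers, *Cx3cr1*, *C1qa* and *C1qb* were called higher (42.6 to 48.3 FPKM in sum in controls, 54.1 to 70.7 in cKO). Oligodendrocyte precursor markers were at 63.3 to 64.6 FPKM in sum in controls and 53.4 to 56.7 FPKM in cKO, with 0 of 6 called by limma. Of 7 astrocyte markers, *Aqp4* and *S100b* were called lower (list median -0.23), with overlapping sums of 229 to 261 FPKM in controls and 225 to 316 FPKM in cKO. The sums of 6 markers of dorsal excitatory neurons, of which *Slc17a7* was called lower, and of 11 interneuron markers, none called, overlapped between groups. Sums also overlapped for the thalamic markers, of which *Tcf7l2* (0.40) and *Lhx9* (0.57) were called higher of 4 tested, and for those of the choroid plexus, of which *Ttr* (1.77) and *Clic6* (0.47) were called higher of 3 tested. The part of these shifts in the receptor values was not tested.

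In neurospheres the receptor genes had larger changes. Of 25 tested, 20 had a negative log2 fold change, with a median of -0.35 against -0.01 for all genes tested. There were 10 called lower (13.2% of all genes were) and 3 called higher (11.4%), and with adjusted p values 8 lower (10.2%) and 2 higher (9.13%). All cKO libraries lay below both controls for 19 receptor genes (34.4% of all genes) and above them for 4 (32.1%). At an unadjusted p under 0.05 and any fold, 14 were lower (19.9% of all genes) and 4 higher (18.2%). When the libraries were set to the same FPKM total, the median of all genes went from -0.01 to 0.09 and the share of higher genes among all calls from 46.2% to 60.2%. The count of all genes called lower went from 1620 of 12227 to 830 of 12247. At that total 5 of the 10 receptor genes stayed called lower, which were *Gria1*, *Grik2*, *Gabra3*, *Gabrb1* and *Gabbr2*. The other 5 had log2 fold changes of -0.48 (*Gria4*), -0.54 (*Grik1*), -0.30 (*Grik5*), -0.35 (*Grin3a*) and -0.38 (*Gabra2*) at that total. Without control library 1, the library rich in unnamed entries, 5 were called lower as well, namely *Gria1*, *Gria4*, *Grik1*, *Grik2* and *Gabra3*.

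*Gria1* had the largest change among the receptor genes tested in the 4 tables. It was at 7.38 and 7.94 FPKM in control and 0.828 and 0.368 FPKM in cKO neurospheres. Both cKO libraries were under 1 FPKM and both controls were close to each other. By limma, the change was -2.45 on the log2 scale of FPKM + 1, with a standard error of 0.18 and an adjusted p of 0.00158. Without the added 1, the cKO mean was 0.0781 times the control mean. The other AMPA subunit called was *Gria4*, at 28.6 and 22.5 FPKM in controls and 17.5 and 15.4 FPKM in cKO, a log2 ratio of -0.60 (SE 0.14) with an adjusted p of 0.0303 from limma. *Gria2*, by far the most abundant receptor gene in these cultures, was at 164 and 180.3 FPKM in controls and 153 and 129.9 FPKM in cKO and did not pass (-0.29, adjusted p = 0.134 from limma), and *Gria3* had -0.11. As a share of AMPA subunit FPKM, *Gria1* went from 3.40 and 3.47% to 0.443 and 0.227%.

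Of 5 kainate subunits, none of which was called in hippocampal tissue, 3 were lower. *Grik2*, a pore-forming subunit, was at 17.9 and 16.8 FPKM in controls and 12.3 and 8.06 FPKM in cKO, with cKO library 2 the lowest and no overlap. The log2 ratio of *Grik2* in limma was -0.74 (SE 0.18, adjusted p = 0.0380). Its entry, here as in hippocampal tissue, also names *C130030K03Rik*, so the values may not be of *Grik2* alone. *Grik1* was at 7.04 and 6.48 FPKM in controls and 4.57 and 3.45 FPKM in cKO, a log2 ratio of -0.64 (SE 0.14) with an adjusted p of 0.0292 from limma. *Grik5*, which needs a partner of the *Grik1* to *Grik3* group to form a channel, was at 58.8 and 52.7 FPKM in controls and 39.6 and 43.5 FPKM in cKO. Its groups did not overlap, but the change was small. Limma estimated a log2 difference of -0.41 (SE 0.096) at an adjusted p of 0.0316, with -0.34 without control library 1 and -0.35 without cKO library 1. *Grik3* moved against the others, with 11.7 and 11.7 FPKM in controls and 15.6 and 13.6 FPKM in cKO (0.29, not called), and its share of kainate subunit FPKM was 11.6 and 12.6% in controls and 20.3 and 18.8% in cKO.

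Of the NMDA subunits, 3 could be tested in neurospheres. *Grin3a* was at 16.3 and 15.1 FPKM in controls and 12.4 and 9.97 FPKM in cKO, both cKO libraries lower. On the log2 scale, limma put the change at -0.46 (SE 0.12, adjusted p = 0.0470), and it lost the call without control library 1 (-0.41) or without cKO library 2 (-0.31). *Grin2c* was at 0.575 and 0.553 FPKM in controls and 1.08 and 1.36 FPKM in cKO, both cKO libraries higher, as in hippocampal tissue. The log2 fold change was 0.50 (adjusted p = 0.0940 from limma, above 0.05), and it lost the call with the replicate number as a block (0.50) and without control library 1 (0.51), control library 2 (0.49) or cKO library 2 (0.41). *Grin1* had -0.08.

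*Grm4* rose here too, from 1.18 and 0.791 FPKM in controls to 2.63 and 2.31 FPKM in cKO, with no overlap. This made a log2 ratio of 0.81 (SE 0.17), with an adjusted p of 0.0243 from limma. *Grm5*, at 39.2 and 36.9 FPKM in controls and 32.6 and 27.3 FPKM in cKO, had a log2 ratio of -0.34 (SE 0.11) with an adjusted p of 0.0733 from limma and was not called, and *Grm3* had 0.01.

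Among GABA-A subunits in neurospheres, *Gabra3* was at 4.24 and 2.77 FPKM in controls and 0.510 and 0.588 FPKM in cKO, so both cKO libraries were far below the controls. By limma, the change was -1.52 on the log2 scale, with a standard error of 0.20 and an adjusted p of 0.00609, and it was -1.48 without cKO library 1, the one neurosphere library with little *Xist*. *Gabra2* was at 7.61 and 7.54 FPKM in controls and 4.43 and 5.95 FPKM in cKO, without overlap. The log2 ratio of *Gabra2* in limma was -0.48 (SE 0.14, adjusted p = 0.0619), and the call was lost without control library 1 (-0.48), control library 2 (-0.49) or cKO library 1 (-0.30). The 6 alpha subunits together were at 13.9 and 12.3 FPKM in controls and 6.53 and 8.15 FPKM in cKO.

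The beta subunit *Gabrb1* was at 2.89 and 0.995 FPKM in controls and 0.334 and 0.276 FPKM in cKO neurospheres. Control library 1 stood far above control library 2, and both cKO libraries were lower. Limma estimated a log2 difference of -1.09 (SE 0.33) at an adjusted p of 0.0636. Without control library 1 it was -0.61, and without cKO library 2 it was -1.06, neither of them called.

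*Gabbr2* was at 4.75 and 2.98 FPKM in controls and 1.94 and 1.65 FPKM in cKO neurospheres, and *Gabbr1* at 35.6 and 32.6 FPKM in controls and 26.2 and 27.0 FPKM in cKO. Both subunits of the GABA-B dimer were lower in both cKO libraries. On the log2 scale, limma put the change at -0.78 (SE 0.20, adjusted p = 0.0452), with -0.51 and no call without control library 1, and *Gabbr1* had -0.35 (adjusted p = 0.0370), under the fold threshold. *Gabrg1* had -0.38 and *Gabra4* -0.24, neither called.

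**Figure D3:**
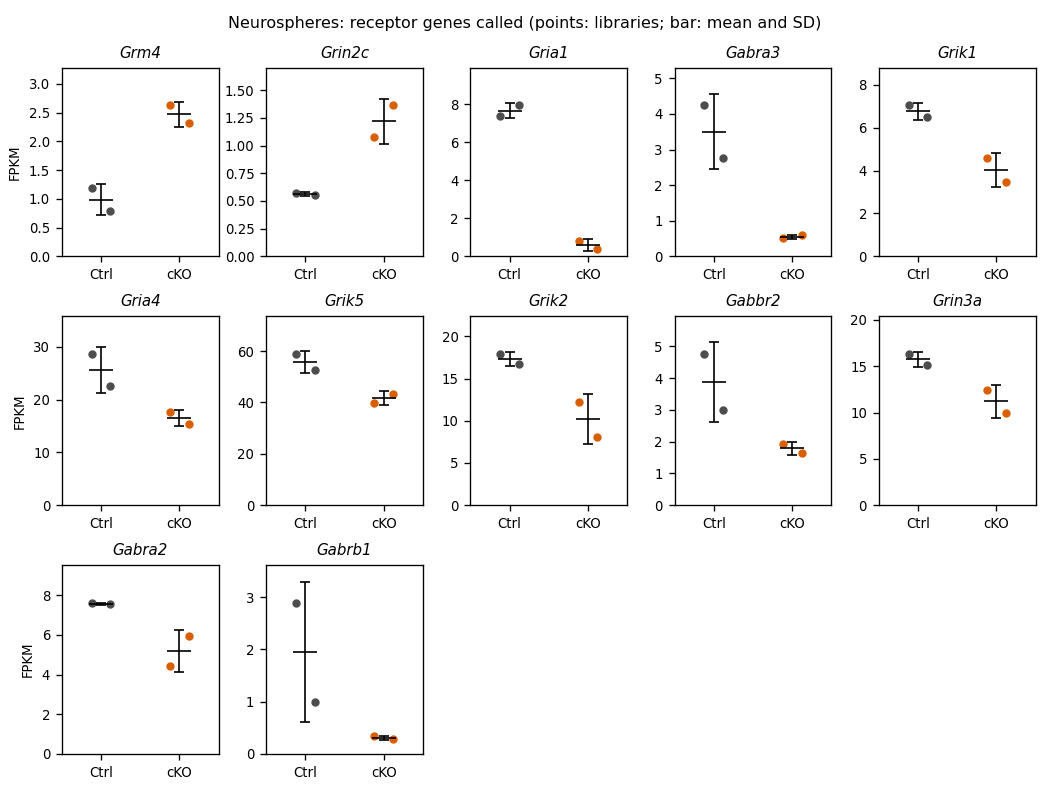
FPKM in each neurosphere library (points) of 12 of the receptor genes called, with the mean and SD of each group, and a y axis from 0 in each panel. *Grm4* and *Grin2c* lie higher in cKO, and the other 10 lie lower, with *Gria1* at 7.38 and 7.94 FPKM in controls and 0.828 and 0.368 FPKM in cKO.

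The cultures themselves differed in cell type markers. All 7 astrocyte markers were called lower in cKO neurospheres, at 246 to 264 FPKM in sum in controls and 53.7 to 62.2 FPKM in cKO, and 4 of 6 oligodendrocyte precursor markers were lower too, *Gpr17* by -3.99 and *Pdgfra* by -1.88 on the log2 scale, although the sums of the precursor markers overlapped (2415 to 2497 FPKM in controls, 2454 to 2516 FPKM in cKO). Of 7 progenitor markers tested, *Vim* and *Nes* were higher and *Hes1* and *Hes5* lower, and the sum over 8 was 1591 to 1701 FPKM in controls and 2785 to 3830 FPKM in cKO. In addition the interneuron factors *Dlx1* and *Dlx2* were higher by 1.82 and 2.19. Among striatal markers *Six3* was higher by 4.17. Pan-neuronal markers were at 265 to 278 FPKM in sum in controls and 205 to 237 FPKM in cKO, with *Tubb3* and *Snap25* lower and *Rbfox3* higher. No microglial marker reached a mean of 0.5 FPKM. The part of these differences in the receptor values was not tested.

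In *Kdm2b* cortices the changes were smaller and none passed an adjusted p. Of 33 receptor genes tested, 24 had a negative log2 fold change (median -0.12, against -0.01 for all genes). There were 4 called lower (2.28% of all genes were), and limma called 0 higher (4.73% of all genes). At an unadjusted p under 0.05 and any fold, 9 were lower (5.10%) and 0 higher (7.72%). With limma-voom on the recovered reads, 7 were called lower and 1, *Grik4*, higher. Of all 17152 genes tested that way, 534 were called lower and 1355 higher. Adjusted p values left 0 receptor genes in either direction (0.370% of all genes higher and 0.0574% lower). All cKO libraries lay below both controls in 16 receptor genes (22.8% of all genes) and above them in 5 (22.0%). Without cKO library 1, the count of lower genes was 1, namely *Gria3*.

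The AMPA subunit *Gria3* was at 7.52 and 7.54 FPKM in control and 5.41 and 5.44 FPKM in cKO cortices, on 1002 to 1634 reads per library. Libraries of a group differed by very little. This made a log2 ratio of -0.41 (SE 0.074), with an adjusted p of 0.127 from limma, and it stayed between -0.47 and -0.41 in every alternative, losing the call only by adjusted p. For this X-linked gene, control library 1, the one cortical library without *Xist*, was at the level of control library 2. *Gria4* was at 8.46 and 7.76 FPKM in controls and 5.56 and 6.14 FPKM in cKO, a log2 ratio of -0.41 (SE 0.090) with an adjusted p of 0.180 from limma, with -0.36 without control library 1 and -0.35 without cKO library 1. AMPA subunits together were at 119 and 130.0 FPKM in controls and 105 and 111 FPKM in cKO, without overlap.

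*Gabra2* was at 6.79 and 5.54 FPKM in control and 3.65 and 4.21 FPKM in cKO cortices, both cKO libraries lower. By limma, the change was -0.54 on the log2 scale, with a standard error of 0.12 and an adjusted p of 0.194, and it was -0.45 and no longer called without cKO library 1. *Gabrb1*, a gene of the same chromosomal cluster, was at 1.14 and 0.952 FPKM in controls and 0.541 and 0.556 FPKM in cKO, on 144 to 349 reads per library. Its cKO libraries nearly coincided. The log2 ratio of *Gabrb1* in limma was -0.40 (SE 0.13, adjusted p = 0.317), and the call was lost without control library 1 (-0.33), cKO library 1 (-0.39) or cKO library 2 (-0.41). The GABA-A family was at 66.8 and 65.5 FPKM in controls and 55.7 and 62.0 FPKM in cKO, again without overlap, whereas GABA-B subunits overlapped. Markers of other cells differed here as well, with 5 endothelial markers at 32.2 to 33.0 FPKM in sum in controls and 52.6 to 52.8 FPKM in cKO and 6 microglial markers at 13.8 to 15.4 and 21.1 to 27.7 FPKM. Pan-neuronal sums were 1552 to 1593 FPKM in controls and 1486 to 1490.0 FPKM in cKO, and interneuron sums 150.5 to 192 and 102 to 147 FPKM. Progenitor sums were 235 to 241 FPKM in controls and 265 to 303 FPKM in cKO, striatal sums 21.0 to 23.8 and 31.1 to 37.7 FPKM, and thalamic sums 64.3 to 69.9 and 53.2 to 55.2 FPKM. Their part in the receptor values was not tested.

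In *Rnf2* hippocampi, 24 of 37 receptor genes tested had a negative log2 fold change (median -0.10, against -0.00 for all genes). By the unadjusted rule 2 were lower (1.85% of all genes) and 1 higher (2.86%), and by adjusted p values 0 were, as for all genes of this table (0.00% in either direction). Without a fold threshold 4 were lower (2.72%) and 2 higher (4.39%) by unadjusted p. With limma-voom on the recovered reads 4 were lower, *Grm3*, *Grm5*, *Gabrb1* and *Gabrg1*, as were 380 of all 16673 genes tested that way. All cKO libraries lay below both controls in 12 receptor genes (18.7% of all genes) and above them in 7 (19.5%). Leaving out control library 1 or either cKO library ended the call of the higher gene and both lower calls, as given next.

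All 3 called genes of the *Rnf2* table were metabotropic receptors. *Grm5* was at 28.5 and 26.6 FPKM in control and 20.4 and 19.7 FPKM in cKO hippocampi, on 3260 to 4368 reads per library. The groups were tight and apart. Limma estimated a log2 difference of -0.44 (SE 0.11) at an adjusted p of 0.590, and it lost the call without control library 1 (-0.39), cKO library 1 (-0.47) or cKO library 2 (-0.42). *Grm3*, a Gi-coupled receptor that glia also use, was at 13.7 and 11.2 FPKM in controls and 8.22 and 8.55 FPKM in cKO, both cKO libraries lower, a log2 ratio of -0.51 (SE 0.14) with an adjusted p of 0.643 from limma. Without control library 1 it was -0.37, without cKO library 1 -0.48 and without cKO library 2 -0.54, none of them called. The 7 astrocyte markers were at 133 to 157 FPKM in sum in controls and 123 to 128 FPKM in cKO, and their part in the value of *Grm3* was not tested.

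*Grm4* was at 1.21 and 1.60 FPKM in control and 2.52 and 2.14 FPKM in cKO hippocampi of the *Rnf2* table, on 108 to 249 reads per library. Both cKO libraries were higher. On the log2 scale, limma put the change at 0.47 (SE 0.18, adjusted p = 0.679), without a call when control library 1 (0.35), cKO library 1 (0.39) or cKO library 2 (0.55) was left out. Together the metabotropic receptors were at 55.7 and 51.4 FPKM in controls and 43.0 and 42.0 FPKM in cKO. The GABA-A family was at 223 and 211 FPKM in controls and 184 and 183 FPKM in cKO, without overlap and with 11 of 12 subunits tested below 0, although none was called and *Gabra5* overlapped (75.1 and 58.2 FPKM in controls, 59.6 and 45.3 FPKM in cKO). Kainate subunits went the other way, with 66.7 and 68.0 FPKM in controls and 76.9 and 72.4 FPKM in cKO. In these hippocampi the sum of 5 choroid plexus markers ranged from 12.5 to 50.4 FPKM in controls and from 7.73 to 242 FPKM in cKO, and its part in the receptor values was not tested.

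**Figure D4:**
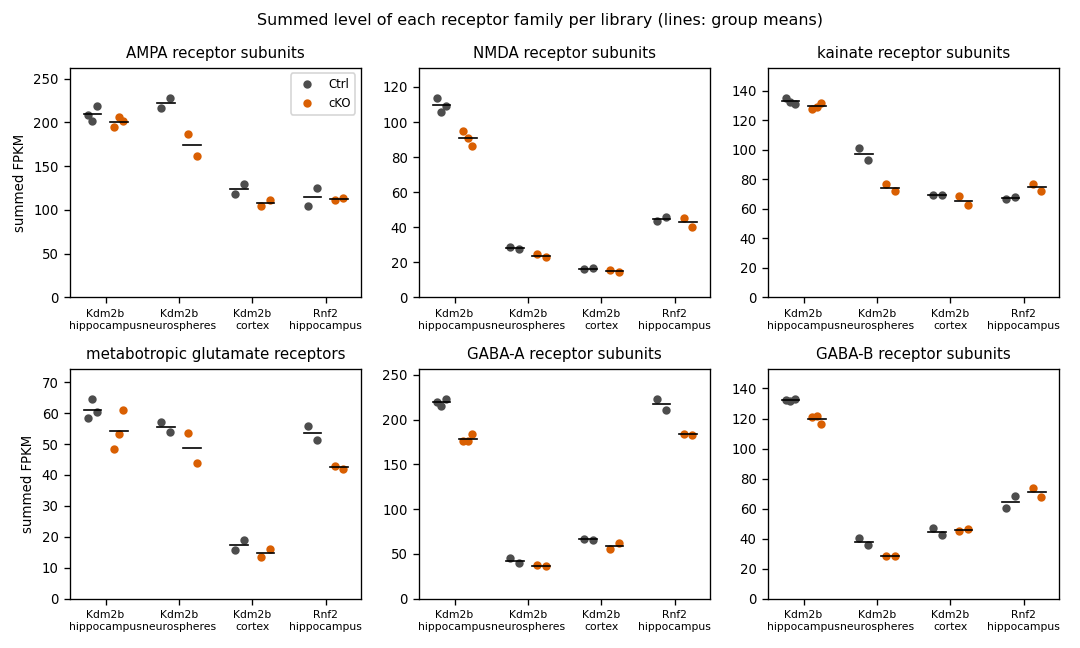
Summed FPKM of 6 receptor families in each library (points, with group means as lines) of the 4 comparisons, with y axes from 0. GABA-A sums lie lower in cKO in all comparisons (in *Kdm2b* hippocampi 176 to 184 FPKM against 215 to 223 FPKM in controls), and no level is compared between tables.

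Set side by side, 23 receptor genes were tested in all 4 tables, which share no library. In 3 of them every cKO library lay on the same side of every control in each table, as did 1.33% of the 9605 genes tested in all tables. *Gria3* and *Grm5* were below (48 of the 9605 genes were) and *Grm4* above (80 of them). *Grm4* had log2 fold changes of 0.67 in hippocampi, 0.81 in neurospheres, 0.22 in cortices and 0.47 in *Rnf2* hippocampi. Those of *Grm5* were -0.43, -0.34, -0.24 and -0.44, and those of *Gria3* -0.39, -0.11, -0.41 and -0.32. These genes were singled out after their values were seen, from levels not set to the same FPKM total. *Grm4* was called in 3 tables, *Grm5* in 2 and *Gria3* in 1. The GABA-A sum was lower in cKO without overlap in each table, but in neurospheres the groups overlapped once the libraries were set to the same FPKM total, as they did there for the AMPA, NMDA, kainate, delta and metabotropic sums.

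Whether an effect differed from that in *Kdm2b* hippocampi was tested directly as an interaction. Against neurospheres, 8 of 25 receptor genes differed (26.9% of all genes did), 7 of them with an adjusted p under 0.05 (22.4%). *Gria1* (2.29, adjusted p = 4.38e-06 from limma), *Gabrb1* (1.12), *Gabra3* (1.06), *Grik2* (0.73), *Grik1* (0.58) and *Gabbr2* (0.55) had a higher log2 fold change in hippocampi. *Gria4* had a difference of 0.49 (adjusted p = 0.0876). For *Gabrb1*, the hippocampal entry also names *Gabra4*, whereas neurospheres and cortices have an entry of *Gabrb1* alone, so unlike entries are compared. Against cortices, 5 of 33 differed by unadjusted p (6.97% of all genes), which were *Grm2* (0.60), *Grin2c* (0.54), *Grm4* (0.45), *Gabrb1* (0.43) and *Grin3a* (-0.57), and 0 by adjusted p (1.60%). On the scale of FPKM + 1 such differences also depend on how low a gene is in each table. In control cortices *Grm4*, *Grin2c* and *Grin3a* averaged 0.452, 0.518 and 0.569 FPKM, *Gabrb1* 1.05 FPKM and *Grm2* 5.01 FPKM. For *Grm4*, the cKO mean was 1.82 times the control mean in hippocampi and 1.55 times in cortices. Against *Rnf2* hippocampi, 3 of 37 differed by unadjusted p (8.85%), namely *Grin2c* (0.62), *Grin1* (-0.49) and *Gabbr2* (-0.48), and 0 by adjusted p (0.683%), with *Gabbr2* nearest at an adjusted p of 0.0706. Between *Kdm2b* and *Rnf2* hippocampi, the effects on *Grm4* differed by 0.20 (standard error 0.20) and those on *Grm5* by 0.01 (standard error 0.15), and neither difference was called.

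**Figure D5:**
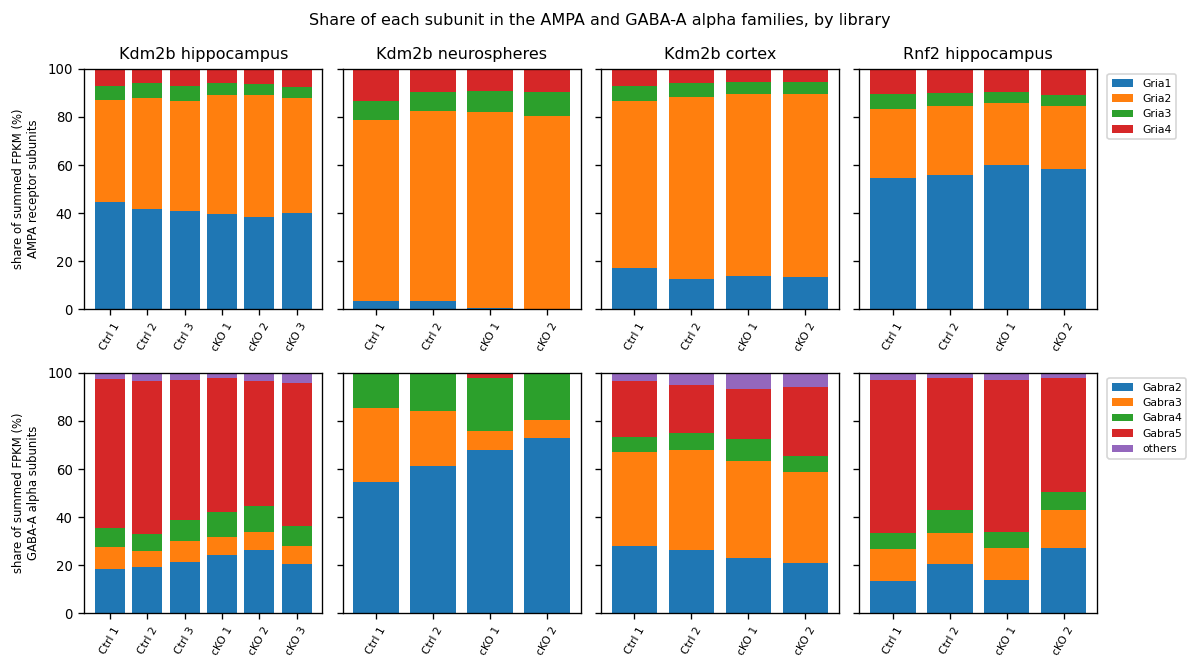
Share (%) of each subunit in the summed FPKM of the AMPA subunits (top) and of the GABA-A alpha subunits (bottom, where *Gabra2* to *Gabra5* have a colour each and the rest share 1), with 1 bar per library. In *Kdm2b* hippocampi the *Gria2* segment takes 42.5% to 46.0% in controls and 47.6% to 50.5% in cKO, and in neurospheres *Gabra3* takes 30.5% and 22.5% in controls and 7.81% and 7.22% in cKO.

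Several GABA-A genes lie next to each other, and the results can be read along them (coordinates in GRCm38, as deposited with the cortical table). On chromosome 5, from 70751047 to 72149037, *Gabrg1*, *Gabra2*, *Gabra4* and *Gabrb1* had log2 fold changes of -0.38, -0.48, -0.24 and -1.09 in neurospheres. All were negative, as were 20 of the 25 receptor genes tested there. The 3 of them tested in cortices were negative too, with -0.54, -0.06 and -0.40, as were 24 of the 33 receptor genes tested there. In *Kdm2b* hippocampi the cluster ranged from -0.16 to 0.03, and in *Rnf2* hippocampi its values were -0.46, -0.00, -0.32 and -0.36. *Gabra4* and *Gabrb1* overlap at their ends, and the counting is not stated to use strand, so reads in the overlap may be assigned to either. The X-linked cluster, from 72255999 to 72842602, had *Gabra3* as its one gene with a mean of 0.5 FPKM or more.

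Genes for proteins that assemble with these receptors were counted from the same fits, in which 3.89% of all genes were called higher and 2.25% lower in *Kdm2b* hippocampi, 11.4% and 13.2% in neurospheres, 4.73% and 2.28% in cortices, and 2.86% and 1.85% in *Rnf2* hippocampi. Auxiliary subunits of AMPA and kainate receptors, which set trafficking and gating, had 14 tested genes in each table but neurospheres, where 11 were tested. In *Kdm2b* hippocampi their median log2 fold change was -0.09, with 0 higher and 2 lower, *Cacng8* (-0.48, in an entry shared with *Gm23450*) and *Shisa6* (-0.53). In neurospheres the median was 0.08, *Neto2* (0.45) and *Cacng4* (0.42) were higher and *Shisa9* (-0.60) was lower. In cortices (median -0.05) *Shisa9* (-0.87) and *Shisa6* (-0.43) were lower, and in *Rnf2* hippocampi (median 0.05) *Neto2* (-0.47) was.

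Of 18 excitatory scaffold genes (15 tested in neurospheres), *Dlg2*, which anchors NMDA receptors, was lower in hippocampi (-0.41, list median -0.13) and in cortices (-0.50, list median -0.05). In neurospheres (list median 0.15) *Homer2* was higher (0.88) and *Pick1* (-0.86), *Dlgap1* (-0.60) and *Shank2* (-0.45) were lower, and in *Rnf2* hippocampi (list median 0.10) none was called. None of 8 inhibitory postsynaptic partners (7 tested in neurospheres) was called in any table, with medians from -0.12 in hippocampi to 0.05 in *Rnf2* hippocampi. The chloride transporters *Slc12a2* and *Slc12a5*, which set whether GABA excites or inhibits, were not called in any table either. Of the GABA-B auxiliary subunits, *Kctd12b* was lower in neurospheres (-0.59) and in *Rnf2* hippocampi (-0.65).

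Genes that supply or clear the transmitters were counted against the same shares of all genes, which were highest in neurospheres. Of 9 glutamate genes (median -0.13), the vesicular transporters *Slc17a7* (-0.57) and *Slc17a8* (-0.42) were lower in *Kdm2b* hippocampi. Of 6 tested in neurospheres (median -0.60), the uptake transporters *Slc1a1* (-2.19) and *Slc1a2* (-0.96) and the glutamine synthetase gene *Glul* (-1.93) were lower and *Gls2* (0.83) higher. Of 7 GABA genes, 4 were tested in neurospheres (median -0.69), where the uptake transporter *Slc6a11* (-1.38) and the gene of the degrading enzyme *Abat* (-1.27) were lower, and *Slc6a13* was higher in *Kdm2b* cortices (2.02) and lower in *Rnf2* hippocampi (-0.42). *Slc1a2* is also one of the astrocyte markers counted above.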

How the data were processed

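RNA-seq was read from 4 tables of FPKM values deposited by the authors, 1 value per gene and library, without read counts. For *Kdm2b* hippocampi and neurospheres, the submitters' processing notes and the study's methods name cutadapt, STAR, mm10 and Cufflinks 2.2.1, and how the values of the other 2 tables were made is not given in the sources used here. There, every value below 500 reads, multiplied by gene length, was a whole number of reads within 0.05 (100% of values). This gave the reads assigned to each gene, which were summed per library and used in an alternative. FPKM per library summed to 363633 to 383249 in hippocampi, 452580 to 855276 in neurospheres, 261406 to 279902 in cortices and 261615 to 271513 in *Rnf2* hippocampi. FPKM depends on what else is abundant in a library.

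Names were taken from the tables, with joined names counted for each gene and the entry of highest mean kept. Entries without a name (2861, 2059, 140 and 0) were not used. In R 4.3.3, limma 3.58.1 (lmFit, eBayes with a trend) was run on log2(FPKM + 1), on each table alone, over all genes averaging 0.5 FPKM or more, after a check on simulated data. Fold changes on this scale understate those of low genes. A call needed a fold change beyond 0.4 on the log2 scale and an unadjusted p under 0.05, and Benjamini-Hochberg adjusted p values cover all genes tested in a table. Differences of effects were interaction terms over the genes tested in both tables. Sums and shares are descriptions. Results for 5 receptor genes are not reported here, although counts, sums and shares include them. The 46 receptor genes, the lists and the tests were chosen with earlier results of these data known. In each table, called receptor genes were given in full up to 12 in order of p, the others by fold change, uncalled ones by counts and ranges, with those outside this rule named after their values were seen. Alternatives were a pseudocount of 0.1, no filter or a mean of 1 FPKM, 2 other scalings, eBayes without a trend, summed entries, limma-voom on recovered reads, adjusted p values, no fold threshold, a replicate block and leaving out each library. Replicate numbers did not pair the hippocampal libraries (correlations of deviations 0.0491, -0.103 and -0.0858). Gene positions are GRCm38 as deposited with the cortical table, and promoter windows are from RefSeq. Figures used Python 3.11.15 and matplotlib 3.10.9.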

Additional observations from a re-analysis of the deposited data

Results flagged for a closer look

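The effect of the *Kdm2b* deletion on 6 receptor genes described in the report differed between hippocampi and neurospheres by the limma interaction term, with an adjusted p under 0.05, which 22.4% of all genes did. The difference of log2 fold changes, hippocampi minus neurospheres, was 2.29 for *Gria1* (adjusted p = 4.38e-06), 1.12 for *Gabrb1* (0.0228), 1.06 for *Gabra3* (0.00508), 0.73 for *Grik2* (0.0221), 0.58 for *Grik1* (0.0247) and 0.55 for *Gabbr2* (0.0426). The marker sums of the tables also moved differently, with astrocyte markers at 246 to 264 FPKM in control and 53.7 to 62.2 FPKM in cKO neurospheres and overlapping between groups in hippocampi, where 2 of 7 were called lower and the list median was -0.23. Their part in these differences was not tested. The hippocampal entry of *Gabrb1* also names *Gabra4*, whereas that of neurospheres holds *Gabrb1* alone.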

How the results depend on the processing

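The 27 log2 fold changes of called receptor genes were recomputed under 382 alternatives, not counting the one without a fold threshold, which cannot end a call. Of these, 330 kept the direction and the call and 52 lost the call, and of the 355 that gave a new value 0 turned the direction. Counts moved more. In *Kdm2b* hippocampi, 14 receptor genes were lower without a fold threshold, and with each library left out in turn 4 to 7 were lower and 2 to 3 higher. With a pseudocount of 0.1 there, 6 receptor genes were lower, as were 409 of all 13446 genes tested. In neurospheres the same FPKM total left 5 lower, and with a library left out 5 to 11 were lower and 2 to 3 higher. In cortices, limma-voom on recovered reads called 7 lower and 1 higher, adjusted p values 0 lower, no fold threshold 9 lower, and leaving out a library gave 1 to 6 lower and 0 to 0 higher. In *Rnf2* hippocampi no filter on low values left 0 higher, adjusted p values 0 higher and 0 lower, no fold threshold 2 higher and 4 lower, voom 4 lower, and leaving out a library 0 to 1 higher and 0 to 3 lower. The count of genes whose effect differed from hippocampi was, against cortices, 1 at a mean of 1 FPKM, 0 by adjusted p and 8 without a fold threshold, and against *Rnf2* hippocampi 0 by adjusted p and 6 without a fold threshold. With a lone library left in a group, that library is assumed to vary like the others, and the causes of these moves were not tested beyond what each alternative changes.

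With the replicate number as a block, receptor genes called higher and lower numbered 3 and 4 in hippocampi, 2 and 10 in neurospheres, 0 and 4 in cortices and 1 and 3 in *Rnf2* hippocampi. In neurospheres the block ended the call of *Grin2c* (0.50). Deviations of same-numbered libraries correlated at -0.277 in neurospheres, where the crossed block, chosen after seeing the data, gave 3 and 10, at -0.0528 in cortices and at 0.161 in *Rnf2* hippocampi. The labels give no reason to pair libraries by number. With 2 or 3 libraries per group and read numbers that could not be recovered from the values of hippocampi and neurospheres, values under about 1 FPKM are the least certain.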
